A study of Rattus norvegicus with 4 samples.

Results

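Aminoacyl-tRNA synthetases are the enzymes that join each amino acid to its transfer RNA. Their genes were examined in cultured rat Sertoli cells with and without cAMP, as 19 listed genes of cytosolic enzymes against 16 of mitochondrial enzymes. The list holds 35 genes and not every synthetase, and a gene counted as measured when a probe set of the array carried its symbol and no other. All 19 cytosolic genes and 13 of the 16 mitochondrial genes were measured, 32 of the 14217 named genes on the array. Lars2, Mars2 and Pars2 had no such probe set and are not analysed here. For 14 of the 32 genes with more than 1 probe set, the one with the highest mean signal over the 4 arrays was used.

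The cells were Sertoli cells of male Sprague-Dawley rats aged 20 days, kept in serum-free medium for 72 h. The control group had no treatment and the other group received cAMP, with 2 arrays in each. The sources used here give neither the form of the cAMP nor its dose. The labels call the 2 samples of a group biological replicates but name no separate animals or cultures, and p-values therefore reflect only how far these samples differ, which may be technical.

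A synthetase recognises its amino acid and its tRNA and couples them at the cost of ATP, and the charged tRNA then delivers the amino acid to the ribosome. Mitochondria translate their own small genome with a separate set of enzymes, encoded in the nucleus by the genes whose symbols end in 2, while Gars1 and Kars1 supply both compartments. In mammals several cytosolic enzymes sit together in a multisynthetase complex held by scaffold proteins. When amino acids run short, or the endoplasmic reticulum is stressed, phosphorylation of the initiation factor eIF2 favours translation of the transcription factor ATF4. Genes for many cytosolic synthetases are known ATF4 targets. Sertoli cells secrete large amounts of protein, and cAMP is the messenger of follicle-stimulating hormone in them.

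Signals are linear probe set intensities, and differences are cAMP minus control on the scale log2(signal + 16), each given ± its standard error. Rose and fell refer to an adjusted p under 0.05 by limma over all 18625 probe sets tested. Every one of the 32 genes passed the filter on dim probe sets, and none had an array at or below the background signal of 14.2. Precision is limited by there being 4 arrays.

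The median signal of an array lay between 31.3 and 33.7. Of 13 Sertoli cell markers 10 were measured, none of them at background on all 4 arrays. Their summed signal was 29034 to 30839 on the control arrays and 30791 to 30923 on the cAMP arrays, but its parts went both ways: Inha, Shbg and Dhh rose, Gata4 and Aard fell, and 5 did not pass. The 5 measured germ cell markers summed to 3613 to 3964 without and 2746 to 3723 with cAMP. Kit was below the filter, and none of the 4 tested passed. Most of the sum came from Sycp3 (2339.6 and 2298.0 against 2257.7 and 1753.6). Of the 5 only Sycp1 had a positive difference (0.25 ± 0.20). The 7 markers of peritubular myoid cells summed to 461 to 614 without and 182 to 221 with cAMP. That difference was carried mostly by Tagln (344.5 and 264.3 against 1.3 and 7.4), and Synpo2 also fell (64.1 and 32.5 against 8.8 and 16.4). The cAMP signals of both were under the filter's level of 18.3, so these 2 genes were tested only through their control arrays. Des rose (19.7 and 19.5 against 58.1 and 68.3), and Acta2 and Myh11 did not pass. The sum of the 4 measured endothelial markers, 156 to 230 without and 88.3 to 91.2 with cAMP, followed Kdr, which fell from 187.3 and 130.8 to 57.5 and 58.1. Tek did not pass (-0.0012 ± 0.23), and Pecam1 and Vwf were at background on all 4 arrays. Leydig cell markers (6 measured) summed to 73.5 to 95 on the arrays, with Cyp17a1, Hsd3b1 and Lhcgr at background on all 4. Cyp11a1 was above background on all 4 arrays (42.1 and 40.6 against 50.9 and 42.4) and did not pass. Below the filter, Hsd17b3 read 23.3 and 24.3 against 16.4 and 9.7, and Insl3 read 14.7 and 13.0 against 7.0 and 12.2. The 8 macrophage markers summed to 102 to 161 without and 101 to 136 with cAMP. Ptprc, Cd163, Adgre1 and Itgam were at background on all 4 arrays, Cd68, below the filter, read 4.1 and 6.2 against 28.1 and 45.2, Lyz2 read 47.3 and 108.6 against 26.4 and 27.6 without passing (adjusted p by limma = 0.0751), and Csf1r and Cd14 had overlapping groups. The part of these cells in the differences was not tested. In cultures measured whole, fewer cells of a type and less RNA per cell cannot be told apart.

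The cytosolic synthetases were higher with cAMP in most cases and the mitochondrial ones were not. Of the 19 cytosolic genes 5 rose, none fell and 14 did not pass the threshold, beside 8.27% of all 10035 genes tested that rose. Of the 13 mitochondrial genes none rose, Nars2 fell and 12 did not pass, beside 7.16% of all genes that fell. The median log2 difference was 0.65 over the cytosolic and -0.13 over the mitochondrial genes, with -0.03 over all genes tested. It was positive for 18 of 19 cytosolic genes, 94.7%, and for 4 of 13 mitochondrial genes, 30.8%, beside 47.1% of all genes tested. With the mean over all tested probe sets of a gene it was positive for 15 cytosolic and 4 mitochondrial genes. With 1 array left out it was positive for 15 to 19 cytosolic and 4 to 6 mitochondrial genes. Both cAMP arrays lay above both control arrays for 14 cytosolic and 2 mitochondrial genes, where 28.8% of all genes tested did so. Both lay below for no cytosolic and 6 mitochondrial genes, where 32.6% of all genes did.

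None of the 6 calls held when either cAMP array was left out, but fewer of all genes passed in those fits too. Counts depended on the control arrays too. Without control replicate 1, 12 cytosolic genes rose, in a fit in which 14.2% of all genes did, and without control replicate 2, 5 rose and Nars2 no longer passed. The median over the cytosolic genes stayed between 0.48 and 0.77 whichever array was left out, and that over the mitochondrial genes between -0.26 and -0.04.

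**Figure D1:**
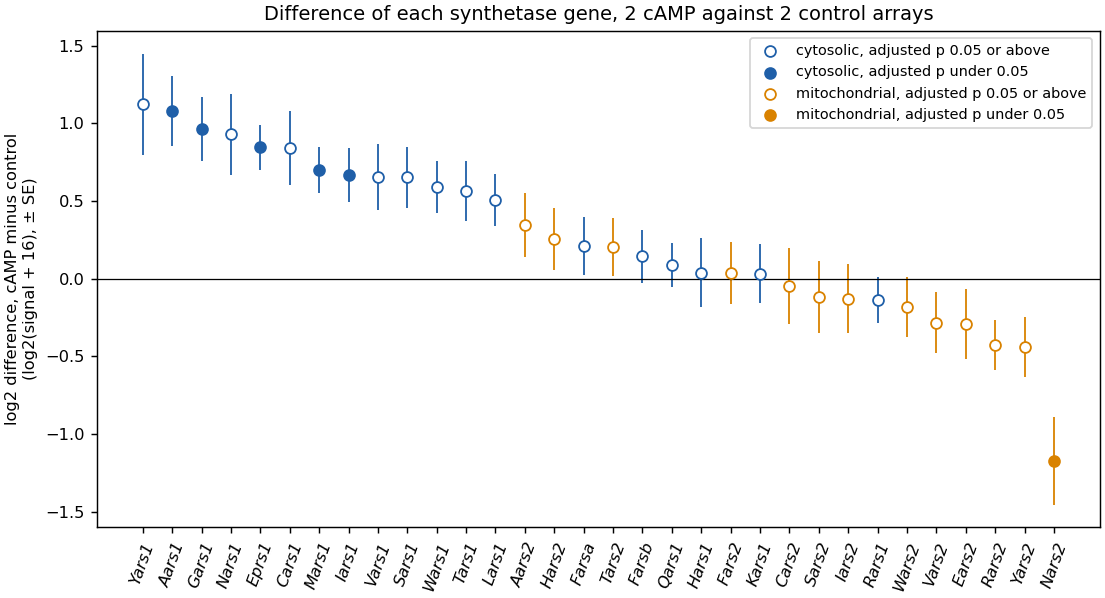
Log2 difference, cAMP minus control, of each of the 32 synthetase genes on the log2(signal + 16) scale, in order of size, with bars for ± 1 standard error; blue marks cytosolic and orange mitochondrial genes, and filled points have an adjusted p under 0.05. The 13 genes on the left, from Yars1 at 1.12 to Lars1 at 0.51, are all cytosolic, and Nars2 stands at the right end at -1.17.

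The genes that rose were Aars1, Gars1, Eprs1, Mars1 and Iars1. Aars1, which encodes the alanine enzyme, had signals of 483.4 and 301.6 on control replicates 1 and 2 and of 755.6 and 902.6 on the cAMP arrays. Both cAMP values lay well above both control values, and the log2 difference was 1.08 ± 0.22 (adjusted p by limma = 0.0203), or 2.11-fold on this scale. Gars1, the gene of the glycine enzyme, was at 508.9 and 327.8 without and at 837.3 and 788.2 with cAMP (0.96 ± 0.21, adjusted p = 0.0229). Its second probe set, dimmer, gave 97.2 and 50.1 against 208.1 and 194.9 and passed as well (1.33 ± 0.26).

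Eprs1 encodes the joined enzyme that charges the tRNAs of glutamate and of proline. Its control signals of 313.4 and 337.9 were close to each other, and the cAMP signals were 559.1 and 639.3. The difference of 0.85 ± 0.15 had the lowest adjusted p of the 32 genes (0.00947). Of its other probe sets, one passed too (1.44 ± 0.18, from 73.0 and 61.2 to 192.8 and 225.3), a second did not (0.60 ± 0.19, adjusted p = 0.0892), and the third lay at background on all 4 arrays.

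Mars1, the gene of the methionine enzyme that also serves the initiator tRNA, had 333.7 and 285.9 without and 511.6 and 512.2 with cAMP (0.70 ± 0.15, adjusted p = 0.0212). Iars1, for isoleucine, went from 225.8 and 172.7 to 334.8 and 311.7 (0.67 ± 0.18, adjusted p = 0.0474). For Mars1 a dimmer probe set read 73.2 and 8.4 against 161.6 and 156.3 (1.91 ± 0.52, adjusted p = 0.0537), with control replicate 2 at background, and the mean of both probe sets gave 1.30. For each of the 5 genes the cAMP arrays agreed more closely with each other than they did with either control array. Over the 12 alternative settings the adjusted p of these 5 ranged from 0.000647 for Gars1 to 0.324 for Iars1, and Iars1, the one nearest the threshold, passed in 4 of them. A dimmer probe set of Iars1 gave 23.3 and 27.3 against 31.0 and 20.5 (0.01 ± 0.23), and with the mean of both the difference was 0.34 (adjusted p by limma = 0.256).

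A further 8 cytosolic genes had both cAMP arrays above both control arrays and a log2 difference of at least 0.51 without passing the threshold. Yars1, for tyrosine, had a difference of 1.12 ± 0.33 (adjusted p = 0.0653), a value that came to 0.58 with control replicate 2 left out and to 1.66 with control replicate 1 left out. Its control arrays stood far apart, at 313.9 and 140.8, and its cAMP arrays were at 539.2 and 424.8. Nars1, for asparagine, showed the same layout, with 545.5 and 293.4 against 812.8 and 742.9 (0.93 ± 0.26, adjusted p = 0.0590).

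Cars1, for cysteine, had 128.9 and 78.2 against 209.9 and 177.6 (0.84 ± 0.24, adjusted p = 0.0590). Another probe set of Cars1 did pass, with 68.7 and 29.4 against 152.8 and 142.2 (1.40 ± 0.30, adjusted p by limma = 0.0218). Its remaining probe sets did not, one at 0.53 ± 0.22 (adjusted p by limma = 0.161) and a dim one with overlapping groups at 0.29 ± 0.24. With the mean over all tested probe sets the difference of Cars1 was 0.76 (adjusted p by limma = 0.0609). Wars1, for tryptophan, had 147.0 and 123.2 against 212.0 and 210.0 (0.59 ± 0.17, adjusted p = 0.0602). Sars1, for serine, differed by 0.65 ± 0.20, from 502.4 and 348.8 to 727.6 and 612.8. On the probe set used for each of these 3 genes, the lower cAMP array still exceeded the higher control array.

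Vars1, for valine, differed by 0.66 ± 0.21. Here it was the cAMP pair that stood apart, at 137.2 and 202.3, with the control arrays at 102.4 and 97.9. Tars1, for threonine, went from 154.7 and 111.9 to 197.6 and 207.6 (0.56 ± 0.19), and Lars1, for leucine, from 438.6 and 363.9 to 639.3 and 515.8 (0.51 ± 0.17). A dimmer probe set of Lars1 had overlapping groups, at 30.2 and 45.4 against 46.9 and 41.4 (0.17 ± 0.22). With the mean of both, the difference of Lars1 was 0.34 (adjusted p by limma = 0.216).

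**Figure D2:**
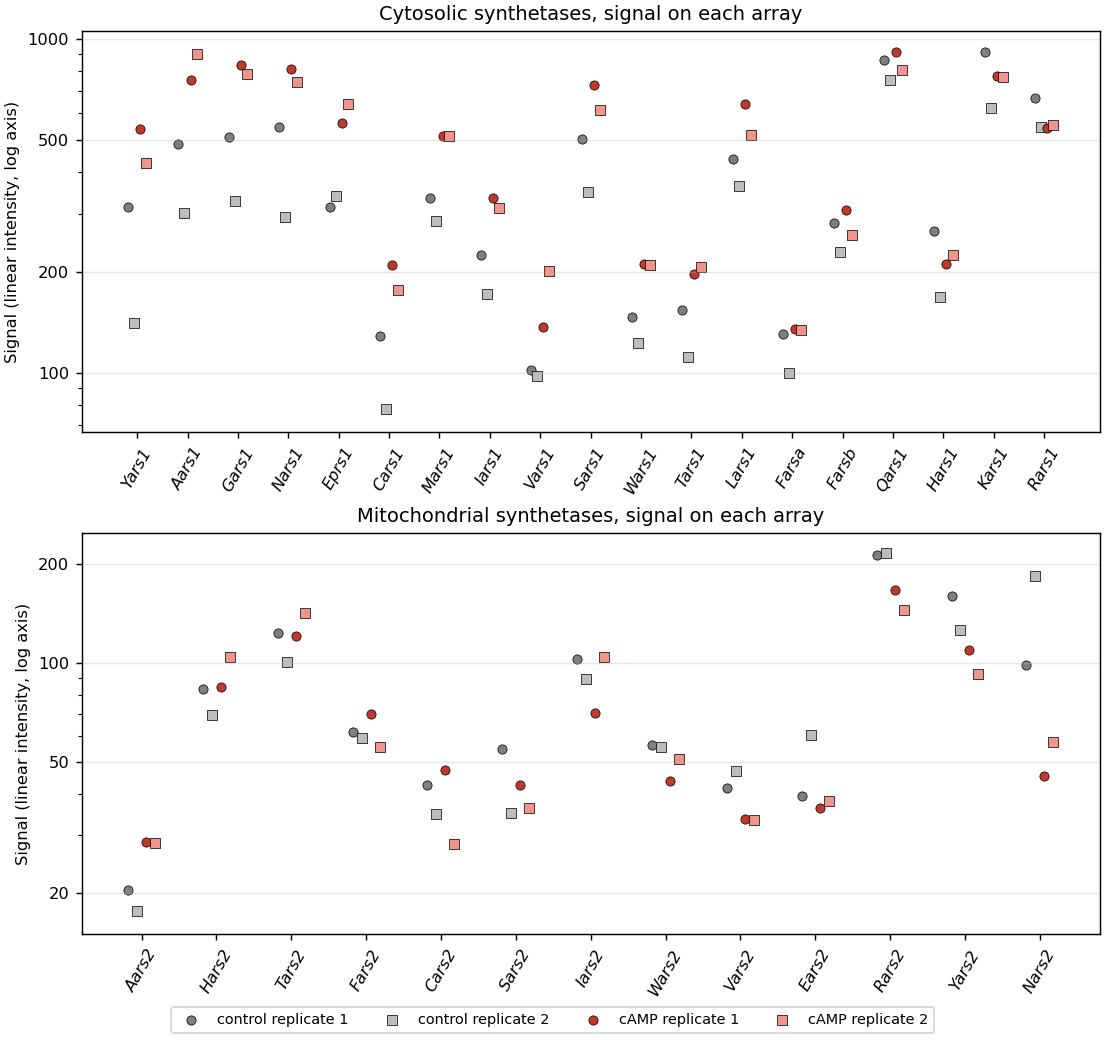
Signal of each synthetase gene on each of the 4 arrays (linear intensity on a log axis), cytosolic genes above and mitochondrial genes below, ordered by their log2 difference; grey marks control and red cAMP, circles replicate 1 and squares replicate 2. Control replicate 2 is the lowest of the 4 values for most cytosolic genes, with Yars1 at 140.8 there against 313.9 on control replicate 1. Levels of different genes come from different probes and are not to be compared.

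The remaining 6 cytosolic genes differed little. Farsa and Farsb, the alpha and beta subunits of the phenylalanine enzyme, had differences of 0.21 ± 0.19 and 0.14 ± 0.17. Qars1, for glutamine, was at 862.9 and 752.0 against 911.6 and 805.2 (0.09 ± 0.14), Hars1, for histidine, at 266.3 and 169.2 against 211.9 and 225.8 (0.04 ± 0.22), and Kars1, for lysine, at 917.1 and 620.7 against 774.5 and 770.2 (0.03 ± 0.19). On the probe set used for each gene, Rars1, for arginine, was the single cytosolic gene with a negative difference. It was at 666.9 and 544.1 against 541.2 and 552.0 (-0.14 ± 0.15). Of the 13 other tested probe sets of cytosolic genes, 10 had a positive difference. Those of Kars1 (-0.34 ± 0.25), Farsb (-0.23 ± 0.20) and Hars1 (-0.04 ± 0.22) were negative and did not pass. On the probe sets used, control and cAMP arrays overlapped for all of these 6 genes except Farsa. Its cAMP arrays, at 135.9 and 134.4, lay just above the higher control array at 130.9.

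The 95% intervals of these 6 genes do not show that they stayed the same. That of Qars1 ran from -0.24 to 0.42, that of Kars1 from -0.41 to 0.48 and that of Rars1 from -0.49 to 0.21. The widest gap in the ordered cytosolic differences, 0.30, lay between Lars1 at 0.51 and Farsa at 0.21. It split the set into 13 and 6 genes, a division read from these values and not tested.

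Genes of the multisynthetase complex lay on both sides of it. Of the 7 measured synthetases of the complex, Eprs1, Mars1 and Iars1 rose, Lars1 was at 0.51, and Qars1, Kars1 and Rars1 lay between -0.14 and 0.09. The median was 0.51 for these 7 and 0.65 for the 12 cytosolic genes outside the complex, of which 2 rose. The scaffold genes had negative differences. Eef1e1, one of the 3 scaffold proteins, fell from 719.2 and 681.9 to 502.4 and 452.6 (-0.54 ± 0.14, adjusted p = 0.0408), and Aimp1 (-0.23 ± 0.14) and Aimp2 (-0.22 ± 0.15) did not pass. The call of Eef1e1 was lost when either cAMP array was left out. By structural class of the enzyme, the median was 0.66 for the 10 cytosolic class I genes and 0.56 for the 9 class II genes, with Eprs1, whose product joins an enzyme of each class, counted in class I. The 2 genes that supply both compartments lay on either side of it, Gars1 at 0.96 and Kars1 at 0.03.

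Control replicate 2 stood below control replicate 1 for 18 of the 19 cytosolic genes, 94.7%, beside 56.0% of all genes tested, with a median difference of -0.36 between the 2 control arrays. The cAMP arrays differed by a median of -0.01. Against control replicate 1 alone, 16 cytosolic genes were higher on cAMP replicate 1 and 14 on cAMP replicate 2, with median differences of 0.52 and 0.42. Against control replicate 2 the numbers were 18 and 19 genes, with medians of 0.74 and 0.80. For the mitochondrial genes the 4 medians lay between -0.22 and -0.10, with 4 to 6 of 13 genes higher on the cAMP array. As for RNA integrity, actin probes at the 3' end read 2.25 times those at the 5' end on control replicate 2, and 1.64 to 1.86 times on the other arrays. The Gapdh ratio was 0.903 there and 0.930 to 0.966 elsewhere. Whether RNA integrity bears on the distance between the control arrays was not tested.

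**Figure D3:**
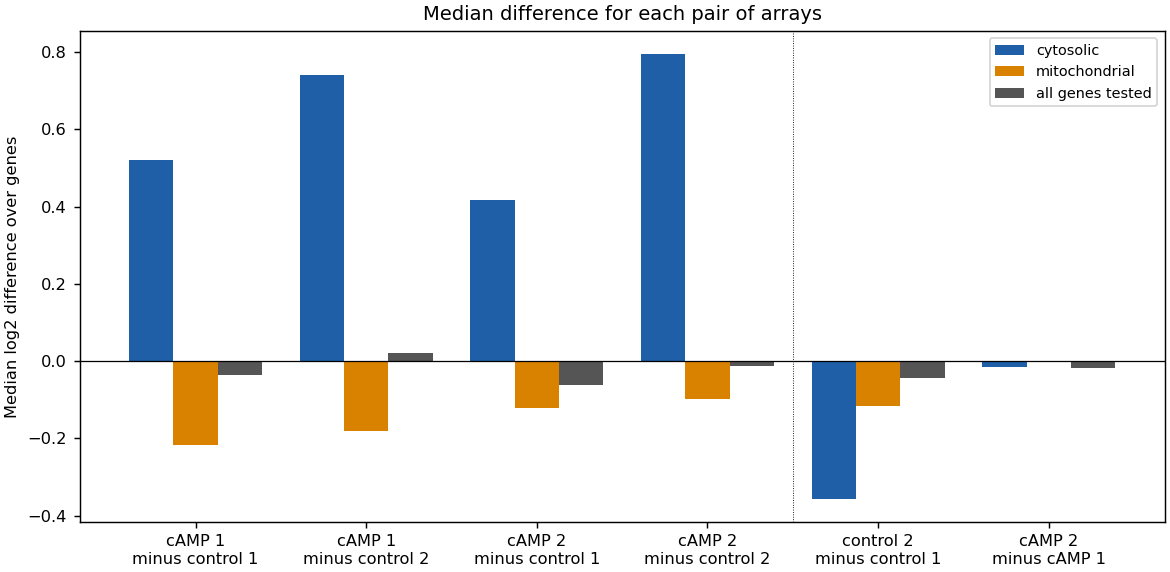
Median log2 difference over the 19 cytosolic genes (blue), the 13 mitochondrial genes (orange) and all 10035 genes tested (grey) for each cAMP array minus each control array, and, right of the dotted line, between the arrays of a group. The cytosolic median is 0.42 or more in all 4 comparisons and -0.36 between the control arrays.

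Among the mitochondrial genes Nars2 alone passed the threshold. Nars2, which encodes the asparagine enzyme of mitochondria, was at 98.8 and 184.0 on the control arrays and at 45.3 and 57.7 on the cAMP arrays, a log2 difference of -1.17 ± 0.28 (adjusted p by limma = 0.0349). Both cAMP values were below both control values, but the control arrays stood far apart, with control replicate 2 the higher. With control replicate 2 left out the difference was -0.77 (adjusted p by limma = 0.0631). Its adjusted p ran from 0.00254 to 0.236 over the 12 alternatives and passed in 8 of them.

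Yars2 and Rars2 came next. Yars2, for tyrosine, was at 159.9 and 126.0 against 109.3 and 92.4 (-0.44 ± 0.19, adjusted p = 0.188), and Rars2, for arginine, at 212.9 and 215.9 against 167.0 and 144.5 (-0.43 ± 0.16, adjusted p = 0.135). Their groups did not overlap, yet neither passed. The same held for Ears2, for glutamate, at 39.6 and 60.6 against 36.4 and 38.2 (-0.29 ± 0.23), for Vars2, for valine (-0.28 ± 0.20, 41.7 and 47.0 against 33.6 and 33.5), and for Wars2, for tryptophan (-0.18 ± 0.19).

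Aars2, the alanine enzyme, and Hars2, the histidine enzyme, were the mitochondrial genes with both cAMP arrays above both control arrays. Aars2, which was dim, had 20.5 and 17.7 against 28.7 and 28.4 (0.35 ± 0.20, adjusted p = 0.322), and Hars2 had 83.4 and 69.4 against 84.4 and 104.4 (0.25 ± 0.20), with 0.47 ± 0.20 for its other probe set. Tars2 was at 0.21 ± 0.19 (0.45 ± 0.20 for the other probe set), Fars2 at 0.04 ± 0.20, Cars2 at -0.05 ± 0.24, Sars2 at -0.12 ± 0.23 and Iars2 at -0.13 ± 0.22. Groups overlapped for these last 5 genes. By class, none of the 7 mitochondrial class I genes had a positive difference (median -0.28), whereas 4 of the 6 class II genes did (median 0.12), a split that was not tested. Adding 16 before taking logarithms compresses the differences of dim probe sets more than those of bright ones, and the dimmest members were mitochondrial. With 1 added instead of 16, the median was 0.67 over the cytosolic and -0.15 over the mitochondrial genes, with 18 and 4 positive differences.

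Side by side for the same amino acid, the cytosolic gene had the larger difference in 13 of 14 pairs, in which Fars2 was set against both Farsa and Farsb. The pair of Farsb and Fars2 changed sides with the mean over all tested probe sets, at -0.045 and 0.036. Without control replicate 2 it did so too, at 0.0056 and 0.0097. The median distance between the members of a pair was 0.77. The pair for asparagine was farthest apart, with Nars1 at 0.93 and Nars2 at -1.17, followed by tyrosine, with Yars1 at 1.12 and Yars2 at -0.44. Histidine was the exception, with Hars1 at 0.04 below Hars2 at 0.25. In the RefSeq rat assembly GRCr8, Hars1 and Hars2 are also the only listed synthetase genes that are direct neighbours. The pairs share the 4 arrays and were not tested against each other.

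**Figure D4:**
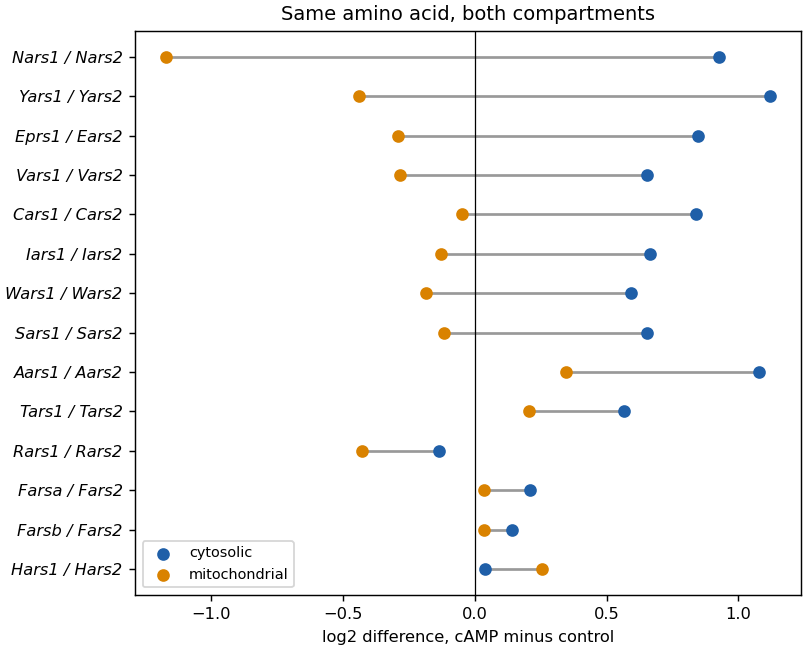
Log2 difference, cAMP minus control, of the cytosolic (blue) and the mitochondrial (orange) gene for each amino acid measured in both compartments, joined by a line and ordered by their distance. The blue point lies to the right in 13 of 14 pairs, and Hars1 / Hars2 is the exception.

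Promoters were compared because most cytosolic genes differed in 1 direction. RefSeq promoter windows of assembly GRCr8, 250 bases before to 50 after the annotated start, were matched for 30 of the 32 genes; Gars1 and Rars1 had none. The letters TGATGNAA, the core of the composite element bound by C/EBP and ATF4 proteins, were searched on both strands. They were found in 7 of 17 cytosolic promoters, 41.2%, in none of 13 mitochondrial promoters, and in 3.82% of all 27457 promoters of the same length. The 7 genes were Aars1, Cars1, Iars1, Mars1, Nars1, Tars1 and Yars1, each with the letter C at the open base in at least 1 match, a form held by 0.743% of all promoters. All 7 were among the 13 cytosolic genes above the gap, as was Gars1, which had no promoter window. That division was read from these same differences, so the overlap is a description and not a test. With the mean over all tested probe sets Iars1 came to 0.34, and so did Lars1, the gene at the edge of the gap. The 4 cytosolic promoters whose genes had overlapping groups (Farsb, Hars1, Kars1 and Qars1) held none, and neither did that of Farsa.

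The matches lay from 112 bases before to 39 bases after the start. They are shown with up to 20 bases on either side, 5′ to 3′ on the gene's strand and with the match in capitals, to let the shared letters be seen.
Aars1, chr19:55908350-55908397, + strand: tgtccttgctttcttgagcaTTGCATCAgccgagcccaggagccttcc
Aars1, second match, chr19:55908471-55908518, + strand: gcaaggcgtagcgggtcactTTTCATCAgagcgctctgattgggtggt
Cars1, chr1:208225325-208225372, - strand: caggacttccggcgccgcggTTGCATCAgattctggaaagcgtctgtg
Iars1, chr17:15193649-15193696, - strand: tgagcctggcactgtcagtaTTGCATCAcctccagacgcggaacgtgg
Mars1, chr7:65023743-65023790, - strand: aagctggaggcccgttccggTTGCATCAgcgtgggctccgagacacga
Nars1, chr18:60275769-60275816, - strand: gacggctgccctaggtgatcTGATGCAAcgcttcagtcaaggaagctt
Tars1, chr2:62114802-62114849, - strand: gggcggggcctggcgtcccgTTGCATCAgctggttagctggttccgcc
Yars1, chr5:146820181-146820212, + strand: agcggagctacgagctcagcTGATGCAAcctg

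In 5 of the 7 genes the match with C reads TTGCATCA along the gene, and in Nars1 and Yars1 it reads TGATGCAA, the same letters on the opposite strand. Eprs1, which rose, held no match in its window, nor did Lars1, Sars1, Vars1 and Wars1. Of all genes tested with a promoter, the motif was held by 2.90% of the 690 that rose, 1.92% of the 572 that fell and 1.86% of the 7206 that did not pass. A match is a description of letters and shows no binding.

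The promoters of the asparagine pair, whose members stood farthest apart, are given whole. The first has the match in capitals and the second holds none.
Nars1, chr18:60275733-60276032, - strand: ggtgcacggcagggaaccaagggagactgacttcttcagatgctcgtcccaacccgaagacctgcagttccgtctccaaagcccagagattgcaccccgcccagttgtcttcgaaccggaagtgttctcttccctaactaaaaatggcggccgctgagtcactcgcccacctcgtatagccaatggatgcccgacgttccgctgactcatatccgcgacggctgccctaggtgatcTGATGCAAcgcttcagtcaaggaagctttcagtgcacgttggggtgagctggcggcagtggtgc
Nars2, chr1:160711467-160711766, + strand: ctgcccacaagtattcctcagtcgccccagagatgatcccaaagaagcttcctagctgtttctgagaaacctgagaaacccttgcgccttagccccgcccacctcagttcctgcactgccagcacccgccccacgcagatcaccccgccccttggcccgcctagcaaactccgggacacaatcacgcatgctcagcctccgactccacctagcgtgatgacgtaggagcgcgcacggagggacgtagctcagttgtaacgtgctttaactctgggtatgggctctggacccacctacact

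Further motifs were searched on both strands in the same windows. The full cAMP response element, TGACGTCA, was in none of the 30 promoters and in 1.91% of all. Its shorter form TGACG, which the full element contains, was in 5 of 17 cytosolic and 7 of 13 mitochondrial promoters and in 22.0% of all. CCGGAAGT, a site of ETS factors such as GABP, was in 7 cytosolic and 2 mitochondrial promoters and in 4.01% of all, with the matches of Hars1 and Hars2 shared, since their windows overlap. GCATGCGC, part of the site of the mitochondrial regulator NRF1, was in Vars2 and Wars2 and no other member, and in 2.66% of all promoters.

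Other genes of the amino acid response differed in the direction of the cytosolic synthetases. Their list was chosen with earlier results of these data known, and its counts are descriptive. Of 22 measured genes of ATF4 and the amino acid response, 15 rose, none fell and 7 did not pass (9 rose without cAMP replicate 1), with a median log2 difference of 1.38, beside 8.27% of all genes tested that rose and 7.16% that fell. Asns, which makes asparagine, rose from 820.1 and 476.6 to 4767 and 4709 (2.89 ± 0.23), and the mitochondrial folate enzyme gene Mthfd2 from 218.5 and 192.8 to 1231 and 1264 (2.51 ± 0.14). Nupr1 (2.98 ± 0.18), Trib3 (2.16 ± 0.20) and Atf5 (1.39 ± 0.15), stress-response regulators, rose as well. Atf4 itself rose by 0.70 ± 0.14, from 1591.6 and 1350.6 to 2592 and 2218. The lipoprotein receptor gene Vldlr, one of the 15, read 131.5 and 100.2 with cAMP, while its control signals of 9.3 and 5.4 were below background. These control signals were also under the filter's level of 18.3, so Vldlr was tested only through its cAMP arrays. Control replicate 2 was the lower control array for 18 of these 22 genes, as it was for 18 of 19 cytosolic synthetases. It was so for 56.0% of all genes tested.

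Genes for other steps of translation are given by count, to be read beside the same 8.27% of all genes tested that rose and 7.16% that fell. Of 7 cytosolic elongation factor genes Eef1d, a subunit of the factor that reloads eEF1A, fell from 1633 and 1507 to 865.7 and 907.6 (-0.81 ± 0.12, adjusted p = 0.0054), and 6 did not pass. Eef1d, too, no longer passed without either one of the cAMP arrays. None of the 8 genes of eIF2 and its exchange factor eIF2B passed (median -0.14), nor any of 7 kinases and phosphatase regulators of eIF2 (median 0.02). On the mitochondrial side, none of 8 translation factor genes (median -0.18), of 9 genes for tRNA modification, amidation and formylation (median 0.11) or of 10 tested regulators of mitochondrial biogenesis passed. Among the last, Nrf1 was at 0.24 ± 0.19 and Tfam, which maintains the mitochondrial genome, at -0.28 ± 0.14.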

How the data were processed

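One array was measured per sample, 2 control and 2 cAMP. GCOS and MAS5 are named in the submitters' processing notes, and the authors deposited 1 linear intensity per probe set. The sources used here give no version, setting or genome build. The mean without the lowest and highest 2% of values was 125.0 on each array. Of 31099 probe sets, 57 were controls; 20832 carried 1 gene symbol, 436 several and 9831 none in the platform annotation, with 20764 matched to RefSeq (GRCr8) for current symbols.

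From the deposited intensities log2(signal + 16) was computed without further normalization. Probe sets whose mean reached the 40th percentile (18625, for 10035 genes) were fitted with limma 3.58.1 in R 4.3.3 (lmFit, eBayes with an intensity trend, two-sided) and adjusted by Benjamini-Hochberg; the threshold was 0.05. The scripts were tested on simulated data. Background was the highest signal of 27 Bacillus control probe sets. Settings tried were other pseudocounts, filters and normalization, no trend, a replicate block, all probe sets of a gene, and leaving out each array. All members were named, those past the threshold or most changed by array; of other lists, up to 6 past the threshold by smallest p. The members and lists were chosen with earlier results of these data known. The division at the widest gap, other named list members and the promoter comparison, with its motif-by-call shares, were chosen after values were seen.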

Additional observations from a re-analysis of the deposited data

How the results depend on the processing

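The count of cytosolic genes past the threshold, 5, was 2 without the filter on dim probe sets (Eprs1 and Mars1), 9 with the replicate block, and 0 to 12 with 1 array left out. That of mitochondrial genes, 1, was 0 without the filter and 0 to 1 with 1 array left out. Medians with 1 array left out were 0.48 to 0.77 (cytosolic) and -0.26 to -0.042 (mitochondrial). Of all genes tested 2.67% rose without cAMP replicate 1, 2.90% without cAMP replicate 2, 14.2% without control replicate 1 and 8.32% without control replicate 2. Genes of the amino acid response past the threshold numbered 9 to 21 with 1 array left out, and those of all 8 pathway lists, 17 in the fit with all arrays, 9 to 27. Why the counts moved was not tested.

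Over the 32 genes and their alternatives, 329 values kept direction and side of the threshold, 22 lost and 13 gained the call, and 14, none of them called, changed sign. With the mean over all tested probe sets Farsb came to -0.045, Hars1 to -0.00011 and Kars1 to -0.15. With 1 array left out the ranges were -0.31 to 0.21 for Cars2, -0.10 to 0.17 for Fars2, -0.27 to 0.34 for Hars1, -0.37 to 0.11 for Iars2, -0.24 to 0.31 for Kars1, -0.010 to 0.18 for Qars1, -0.28 to 0.0064 for Rars1 and -0.35 to 0.12 for Sars2.

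Same-numbered samples did not deviate together (correlation 0.03 across genes), and the labels do not say that numbers pair them. The replicate block added Cars1, Nars1, Sars1 and Yars1. Signal near background limits Aars2, at 17.7 to 28.7.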
